A study of Mus musculus with 15 samples.

Results

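The beta-catenin destruction complex is described here by 9 genes, chosen by name, out of 27179 genes in the count table. They are Apc and Axin1, which form its scaffold, Apc2, a relative of Apc, Ctnnb1, which encodes its substrate beta-catenin, the kinase genes Gsk3a, Gsk3b and Csnk1a1, Btrc, which encodes the substrate receptor of a ubiquitin ligase, and Amer1, which encodes a membrane-bound partner of APC. They were chosen for their role in the complex. RNA was sequenced from mouse epithelial cells in 4 groups. These are Lrig1-high cells from colonic tumors (3 libraries, S04, S08 and S12), Lrig1-low cells from colonic tumors (3 libraries, S03, S07 and S11), Lrig1-high cells from normal colonic epithelium (4 libraries, S02, S06, S10 and S14) and Lrig1-low cells from normal colonic epithelium (4 libraries, S01, S05, S09 and S13). Lists of per-library values below follow this order of libraries. All groups, those labelled normal included, come from mice carrying the Lrig1-eGFP-IRES-CreERT2 and APCmin alleles, and no group has wild-type Apc by its labels. The labels give no age and do not tie libraries to animals, so a p-value here compares a difference with the spread among libraries, part of which may be technical. Cells were sorted as EpCam+ and negative for CD45 and CD31, and the green fluorescent reporter at the Lrig1 locus set the high and low fractions.

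Without a Wnt signal, the proteins AXIN and APC hold beta-catenin beside its kinases. CK1 alpha and GSK3 phosphorylate it, beta-TrCP then binds it, and it is ubiquitinated and destroyed. When APC is truncated, as by the nonsense mutation of the Min allele, beta-catenin escapes destruction, enters the nucleus and acts with TCF/LEF factors on target genes, which in the intestine include genes of crypt base cells and of negative feedback. This control acts on the beta-catenin protein, and only RNA was measured here. The counts per gene do not tell transcripts of the mutant Apc allele from those of the other allele.

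The 14 libraries held 9508505 to 17296536 counts. The fourth tumor Lrig1-low library, S15, held 357 counts in 47 genes and none in any of the 9 genes, and was left out. Mitochondrial genes took 49.5% of the counts of S12 and 14.1% to 29.8% of those of the others. S12 also lacked genes that the others share: 485 genes were under 1 CPM (counts scaled to library size) there and at 5 CPM or more in each other library, against 12 such genes in S08 and at most 1 elsewhere. The Lrig1 gene went against the sort label in 4 libraries. It had 55.7 CPM in S08 (labelled tumor Lrig1-high) and 36.4 CPM in S10 (labelled normal Lrig1-high). In S07 (labelled tumor Lrig1-low) it had 141.7 CPM and in S09 (labelled normal Lrig1-low) 85.5 CPM. Values without these 4 are given for the comparisons they move most. Such fits keep only S04 and S12 as tumor Lrig1-high and only S03 and S11 as tumor Lrig1-low libraries. The tissue is named by its labels: 10 small intestine markers summed to 742.6 to 8621 CPM in the 14 libraries and 8 colon markers to 49.2 to 312.1 CPM. Of the markers of other cell types, leukocyte genes summed to at most 57.2 CPM, fibroblast genes to at most 33.8 CPM, endothelial genes to at most 193.4 CPM and neural and endocrine genes to 179.0 to 3473 CPM, while the 6 epithelial markers summed to at least 3019 CPM.

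Per kilobase of exon, the members lay on 4 levels. Csnk1a1 and Ctnnb1 were the most abundant, with medians over the 14 libraries of 157.8 and 139.9 CPM per kilobase. Apc, Axin1, Gsk3b and Gsk3a followed at medians of 21.1, 17.6, 16.98 and 14.5 CPM per kilobase. Amer1 and Btrc had medians of 2.79 and 1.91 CPM per kilobase, below the median of 6.85 CPM per kilobase over the 13883 genes tested. Apc2 was close to absent, with a median of 0.00388 CPM per kilobase. The substrate transcript exceeded that of Apc in 14 of 14 libraries, by 5.30 to 9.91 times per kilobase (median 6.68). Gsk3a exceeded Amer1 in 14 of 14 libraries too, and Btrc exceeded Apc2 in 14 of 14. Other neighbours in the order overlapped in their ranges: Csnk1a1 lay above Ctnnb1 in 11 of 14 libraries, Apc above Axin1 in 11, Axin1 above Gsk3b in 8, Gsk3b above Gsk3a in 12 and Amer1 above Btrc in 12.

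**Figure D1:**
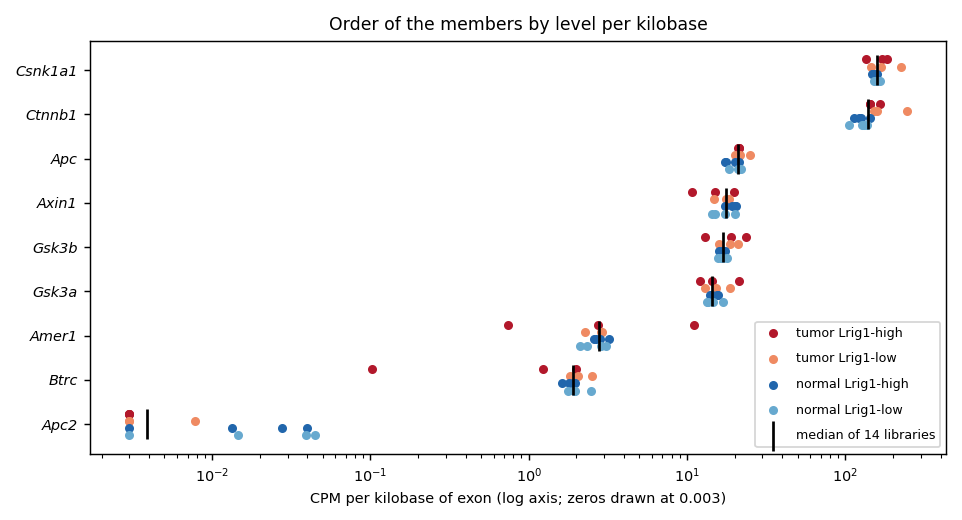
Level of each member in CPM per kilobase of exon (log axis, zeros drawn at 0.003), with 1 point per library coloured by group and a black bar at the median of 14 libraries. Csnk1a1 (157.8) and Ctnnb1 (139.9) lie above the middle group of Apc, Axin1, Gsk3b and Gsk3a, and Apc2 lies far below all others.

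Apc (gene 11789, mm10 chromosome 18, 34220984 to 34322190, plus strand, 16 exons in the authors' annotation) encodes the scaffold protein that the Min allele truncates. It had 265.7, 265.5 and 262.7 CPM in tumor Lrig1-high cells, against 220.4, 215.4, 266.4 and 250.7 CPM in normal Lrig1-high cells. In tumor Lrig1-low cells it had 267.7, 249.9 and 310.9 CPM, against 273.3, 263.8, 228.4 and 262.5 CPM in normal Lrig1-low cells. The groups overlapped in both fractions, and S11 was the highest of all libraries. The log2 fold change of tumor over normal was 0.15 ± 0.17 in Lrig1-high cells (SE, edgeR adjusted p = 0.713) and 0.10 ± 0.17 in Lrig1-low cells (edgeR adjusted p = 0.917). Averaged over both fractions the fold was 1.09, with a 95% interval of 0.918 to 1.30, so a halving of the Apc transcript in the tumor libraries lies outside the interval. Lrig1-high minus Lrig1-low cells differed by -0.06 ± 0.18 in tumors (edgeR adjusted p = 0.947) and by -0.11 ± 0.15 in normal epithelium (edgeR adjusted p = 1). In bulk samples such as these, fewer cells of a type and less RNA per cell cannot be told apart.

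Apc was also among the steadiest genes of the data. The SD of its log2(CPM + 0.5) over the 14 libraries was 0.136, against a median of 0.647 over all genes tested, and 0.439% of genes had a smaller one. Among 463 genes of similar level, 1.51% had a smaller SD. Its highest library was 1.44 times its lowest. Csnk1a1 had an SD of 0.180, Gsk3b 0.202, Gsk3a 0.215, Axin1 0.257 and Ctnnb1 0.295, so 6 of the 8 tested members lay below the median gene. The other pair, Amer1 (0.762) and Btrc (0.951), varied more than the median gene over the 14 libraries. Without S12 their SDs were 0.521 and 0.246, and without S08 as well they were 0.180 and 0.256. The median over all genes was not taken without these libraries, so these lower SDs are not ranked against it.

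**Figure D2:**
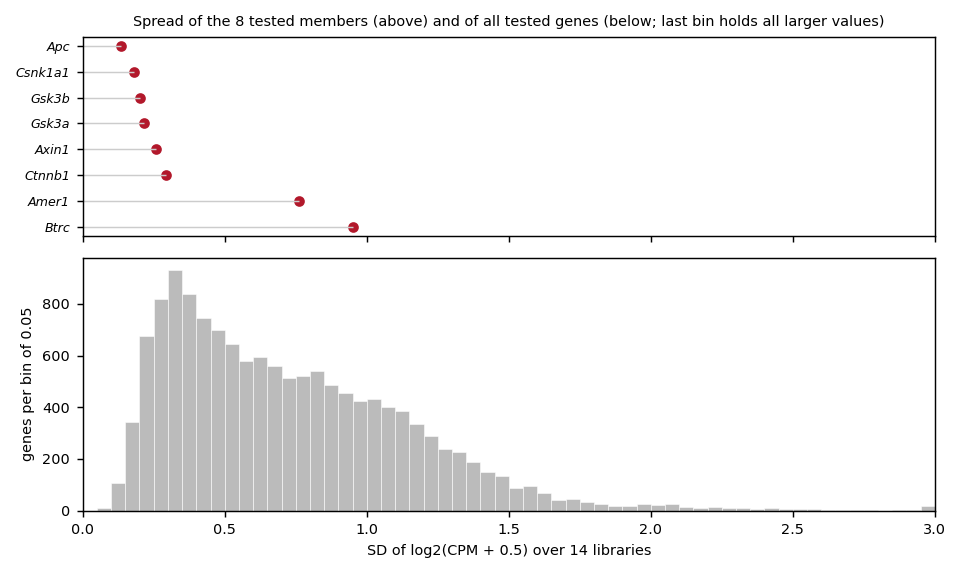
SD of log2(CPM + 0.5) over 14 libraries for each of the 8 tested members (upper panel) and the number of tested genes in bins of 0.05 (lower panel). Apc has the smallest SD of the members at 0.136, and Amer1 and Btrc lie above the median gene at 0.647.

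Chromosome 18, which carries Apc and Csnk1a1, was examined as a whole, since tumors of these mice are known to lose the wild-type Apc allele, often with more of the chromosome. The median log2 fold change of its tested genes in tumor over normal cells was 0.06 in Lrig1-high cells, the highest of 20 chromosomes, whose medians ran from -0.13 to 0.06. In Lrig1-low cells it was 0.10, in a range of -0.02 to 0.13 over the chromosomes, and 58.7% of 363 tested genes on chromosome 18 had a positive fold change, against 52.0% of all genes tested. The medians over all genes tested were -0.04 in Lrig1-high and 0.02 in Lrig1-low cells. DNA copy number was not measured.

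Axin1 (chromosome 17, 26138686 to 26195811) encodes the scaffold protein that is thought to limit assembly of the complex. It had 75.3, 56.5 and 40.9 CPM in tumor Lrig1-high cells, against 76.7, 75.8, 65.9 and 73.3 CPM in normal Lrig1-high cells. For tumor Lrig1-low cells the values were 55.8, 66.9 and 70.1 CPM, against 54.6, 57.1, 76.0 and 65.9 CPM in normal Lrig1-low cells. S08 and S12 lay below every normal Lrig1-high library and S04 among them, so the groups overlapped. The log2 fold change of tumor over normal was -0.34 ± 0.21 in Lrig1-high cells (edgeR adjusted p = 0.529), -0.17 without S12 and -0.59 without S04 (edgeR adjusted p = 0.103). In Lrig1-low cells it was 0.02 ± 0.20 (edgeR adjusted p = 0.995). Between the fractions of normal epithelium Axin1 differed by 0.20 ± 0.19 (Lrig1-high minus Lrig1-low, edgeR adjusted p = 1). With limma-voom and sample weights the same difference was 0.29 (adjusted p = 0.0471), in a fit that called 4169 genes or 30% of those tested, and its adjusted p reached 1 in other alternatives.

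Axin2, which is closely related to Axin1 and is at once a scaffold of the complex and a target of beta-catenin, followed another pattern. It had 244.8, 123.5 and 226.4 CPM in tumor Lrig1-high cells, against 255.5, 331.3, 62.3 and 250.2 CPM in normal Lrig1-high cells. In tumor Lrig1-low cells it had 167.7, 313.5 and 440.9 CPM, against 48.9, 46.7, 137.8 and 50.002 CPM in normal Lrig1-low cells. The tumor and normal libraries overlapped in the Lrig1-high fraction and not in the Lrig1-low fraction. The log2 fold change of tumor over normal was -0.18 ± 0.54 in Lrig1-high cells (edgeR adjusted p = 0.900) and 2.12 ± 0.54 in Lrig1-low cells (edgeR adjusted p = 0.0866), neither past the threshold of 0.05. The interaction, the Lrig1-high difference minus the Lrig1-low one, was -2.30 ± 0.76 (edgeR adjusted p = 0.685). Between the fractions of normal epithelium Axin2 differed by 1.67 ± 0.51 (Lrig1-high minus Lrig1-low, edgeR adjusted p = 1). Without S07, S08, S09 and S10 this Axin2 difference was 2.54 ± 0.32 (edgeR adjusted p = 0.00640) and the tumor over normal value in Lrig1-low cells 2.62 ± 0.34 (edgeR adjusted p = 0.00616). Both passed the threshold, as did 5.69% and 3.23% of all genes in these fits. The 4 libraries were left out for their Lrig1 level, which left only S03 and S11 as tumor Lrig1-low libraries. Axin2 was the highest of its group in S09 and the lowest in S10, so these values are not an independent test.

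Apc2 (chromosome 10, 80301820 to 80318256), a relative of Apc best known from the nervous system, was too low to be fitted with the others. It had 1 count over the 6 tumor libraries, in S03, against 22 counts over the 8 normal libraries, with at most 5 in any library and none in S06 or S13. All 3 tumor Lrig1-high libraries were at 0, and 3 counts in the one with the smallest scaled size would be 0.324 CPM, where the highest level in a normal library was 0.408 CPM. Exact two-sided permutation tests on log2(CPM + 0.5) gave p = 0.143 for tumor against normal in Lrig1-high cells and p = 0.171 in Lrig1-low cells (adjusted p = 0.343 for both over 4 tests), where 0.0286 is the smallest p that these group sizes allow. Neither passed the test, and with so few counts and libraries no difference could be shown. The 17 neural and endocrine markers summed to 179.0 to 873.5 CPM in tumor Lrig1-high and 651.2 to 1648 CPM in tumor Lrig1-low cells, against 1177 to 3473 CPM in normal Lrig1-high and 1420 to 2178 CPM in normal Lrig1-low cells. Sox10 was at 0 in every library, and the part of such cells in the Apc2 counts was not tested.

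Ctnnb1 (chromosome 9, 120933400 to 120960507) encodes beta-catenin, which is the substrate of the complex and a part of adherens junctions. It had 515.8, 516.6 and 598.7 CPM in tumor Lrig1-high cells, against 454.3, 515.8, 410.6 and 442.1 CPM in normal Lrig1-high cells. In tumor Lrig1-low cells it had 571.3, 554.6 and 896.3 CPM, against 497.7, 465.0, 380.7 and 478.4 CPM in normal Lrig1-low cells. Each tumor Lrig1-low library lay above each normal Lrig1-low library, as was the case for 9.95% of all genes tested, and S11 stood highest. In Lrig1-high cells the lowest tumor library, S04, and the highest normal library, S06, touched at 515.8 CPM.

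The log2 fold change of Ctnnb1 in tumor over normal was 0.25 ± 0.22 in Lrig1-high cells (edgeR adjusted p = 0.646) and 0.57 ± 0.22 in Lrig1-low cells (unadjusted p = 0.0225, edgeR adjusted p = 0.261). Averaged over both fractions it was 0.41 ± 0.16, a fold of 1.33 with a 95% interval of 1.05 to 1.68 (unadjusted p = 0.0200, edgeR adjusted p = 0.187). It did not pass the threshold in edgeR, while DESeq2 gave 0.43 with an adjusted p of 0.0464 for Ctnnb1 in this comparison, and the adjusted p ran up to 0.818 over the other alternatives. Without S11 the Lrig1-low difference was 0.30 (edgeR adjusted p = 0.954), and without S07, S08, S09 and S10 it was 0.59 (edgeR adjusted p = 0.277). S11 also had the highest endothelial and fibroblast marker sums, 193.4 and 33.8 CPM, with Cdh5 at 154.9 CPM, Vwf at 21.4 CPM, Tek at 14.6 CPM and Pdgfra at 26.1 CPM. Most of the endothelial sum was thus Cdh5. Other markers of these lists were low in S11. Pecam1 and Egfl7 had 1.11 CPM each, Kdr and Dcn 0.22 CPM each, Col3a1 0.15 CPM, Pdgfrb 0.44 CPM and Acta2 6.96 CPM. Col1a1 and Col1a2 were at 0 there. The 8 endothelial markers summed to 7.29 to 36.5 CPM in tumor Lrig1-high and 17.8 to 193.4 CPM in tumor Lrig1-low cells, against 2.38 to 42.1 CPM in normal Lrig1-high and 2.86 to 7.73 CPM in normal Lrig1-low cells. The 8 fibroblast markers summed to 0.912 to 13.3 and 1.96 to 33.8 CPM in the tumor fractions, Lrig1-high and Lrig1-low, against 1.99 to 10.5 and 2.86 to 3.91 CPM in the same fractions of normal epithelium. Emcn and Cldn5 of the endothelial list and Lum of the fibroblast list were at 0 in all 14 libraries, and the part of such cells in the Ctnnb1 value was not tested. The difference between the fractions was -0.31 ± 0.24 in tumors (Lrig1-high minus Lrig1-low, edgeR adjusted p = 0.760) and 0.00 ± 0.20 in normal epithelium (edgeR adjusted p = 1).

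The balance of scaffold to substrate was taken as the ratio of Apc to Ctnnb1 CPM within a library, which does not depend on library scaling. It was 0.515, 0.514 and 0.439 in tumor Lrig1-high cells, against 0.485, 0.418, 0.649 and 0.567 in normal Lrig1-high cells. Among tumor Lrig1-low libraries it was 0.469, 0.451 and 0.347, against 0.549, 0.567, 0.600 and 0.549 in normal Lrig1-low cells. Tumor Lrig1-low libraries lay below each normal Lrig1-low library. Their mean log2 ratio differed by -0.44, with p = 0.0286 in an exact two-sided permutation test, the smallest p that 3 against 4 libraries allow, and an adjusted p of 0.229 over the 8 ratio tests. Without S11 the difference was -0.30 (exact p = 0.0667, the smallest p that the libraries left allow). S03 and S07, at 0.469 and 0.451, still lay below each normal Lrig1-low library. In Lrig1-high cells it was -0.10 (exact permutation p = 0.571).

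The kinase genes differed little. Csnk1a1 (chromosome 18, 61555582 to 61588299) encodes CK1 alpha, which primes beta-catenin for GSK3. It had 345.8, 271.4 and 370.4 CPM in tumor Lrig1-high cells and 340.1, 294.6 and 455.4 CPM in tumor Lrig1-low cells, against 296.0 to 333.3 CPM over the 8 normal libraries. The tumor libraries spread on both sides of the normal ones, with S11 highest and S08 lowest. The log2 fold changes of tumor over normal were 0.11 ± 0.19 in Lrig1-high cells (edgeR adjusted p = 0.819) and 0.19 ± 0.19 in Lrig1-low cells (edgeR adjusted p = 0.810). Without S12 the Lrig1-high value of Csnk1a1 was -0.01.

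Gsk3b (chromosome 16, 38089001 to 38246079) and Gsk3a (chromosome 7, 25228259 to 25237851, minus strand) encode the kinases that phosphorylate beta-catenin after CK1 alpha, and the pair can stand in for each other there. Gsk3b had 157.3, 108.5 and 195.3 CPM in tumor Lrig1-high cells and 132.2, 155.8 and 175.0 CPM in tumor Lrig1-low cells, against 129.9 to 148.1 CPM over the normal libraries. Gsk3a had 27.3, 32.4 and 48.4 CPM in tumor Lrig1-high cells and 34.2, 42.5 and 29.5 CPM in tumor Lrig1-low cells, against 30.3 to 38.1 CPM over the normal libraries. S12 was the highest library for both genes. Tumor over normal log2 fold changes were 0.15 ± 0.19 in each fraction for Gsk3b (edgeR adjusted p = 0.752 in Lrig1-high and 0.872 in Lrig1-low cells) and 0.10 ± 0.22 in each for Gsk3a (edgeR adjusted p = 0.860 and 0.956 in the same order). Without S12 the Lrig1-high values were -0.08 for Gsk3b and -0.20 for Gsk3a, of the opposite sign. The ratio of Gsk3a to Gsk3b was 0.173, 0.299 and 0.248 in tumor Lrig1-high and 0.259, 0.273 and 0.168 in tumor Lrig1-low cells, against 0.225, 0.242, 0.258 and 0.246 in normal Lrig1-high and 0.223, 0.257, 0.235 and 0.233 in normal Lrig1-low cells. Exact permutation tests of the 4 group pairs gave p = 0.6 to 0.914 for this ratio.

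Btrc (chromosome 19, 45363734 to 45533343) encodes beta-TrCP, which recognises phosphorylated beta-catenin for the ubiquitin ligase. It had 7.77, 12.5 and 0.649 CPM in tumor Lrig1-high cells, against 11.4, 12.4, 12.003 and 10.3 CPM in normal Lrig1-high cells. Tumor Lrig1-low cells had 11.6, 15.98 and 13.03 CPM, against 12.4, 11.3, 12.2 and 15.6 CPM in normal Lrig1-low cells. S12, with 6 counts, stood far below the rest. The log2 fold change of tumor over normal was -0.72 ± 0.60 in Lrig1-high cells (edgeR adjusted p = 0.635), -0.22 without S12 (edgeR adjusted p = 0.843) and -1.44 without S08 (edgeR adjusted p = 0.334). In Lrig1-low cells it was 0.08 ± 0.59 (edgeR adjusted p = 0.992).

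Amer1 (chromosome X, 95420313 to 95444840, minus strand) encodes a protein that brings APC to the plasma membrane. It had 23.3, 6.30 and 93.3 CPM in tumor Lrig1-high cells, from 69 counts in S08 and 863 in S12, against 22.5, 21.98, 24.005 and 27.3 CPM in normal Lrig1-high cells. Tumor Lrig1-low cells had 19.1, 24.3 and 24.6 CPM, against 24.1, 19.9, 26.0 and 17.8 CPM in normal Lrig1-low cells. Its lowest and its highest library were thus both labelled tumor Lrig1-high, and the other 12 libraries lay between 17.8 and 27.3 CPM. The log2 fold change of tumor over normal in Lrig1-high cells was 0.77 ± 0.57 (edgeR adjusted p = 0.598), it was 1.28 without S08 (edgeR adjusted p = 0.260), and without S12 it was -0.71 (edgeR adjusted p = 0.687). The direction for Amer1 was therefore set by 1 library, S12, the one with the highest mitochondrial share.

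**Figure D3:**
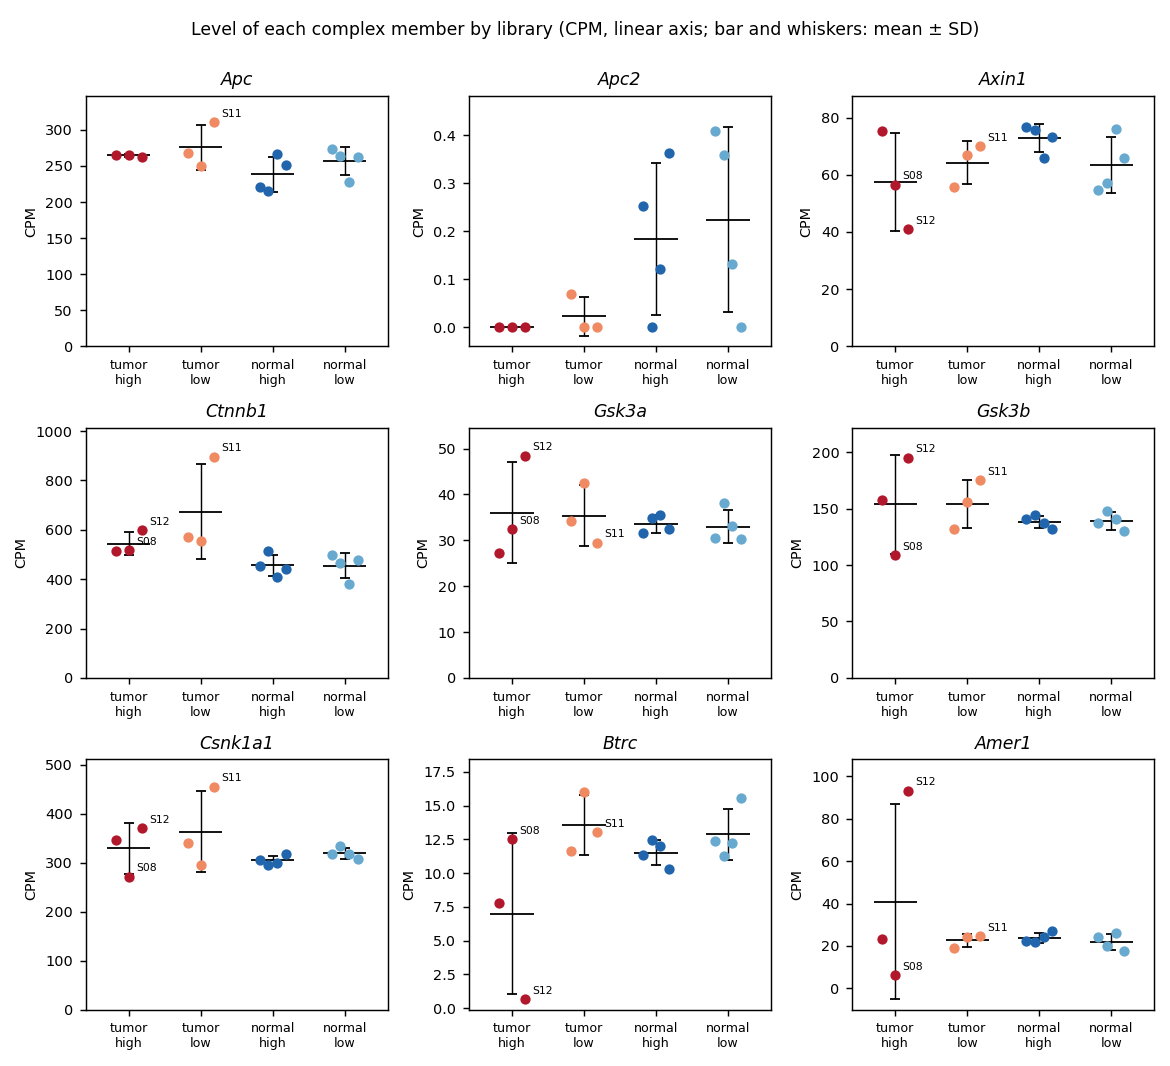
CPM of each of the 9 members by library (linear axes), for tumor Lrig1-high (n = 3), tumor Lrig1-low (n = 3), normal Lrig1-high (n = 4) and normal Lrig1-low cells (n = 4), with 1 point per library and a bar and whiskers for mean ± SD. Apc is level across groups, Ctnnb1 lies higher in the tumor Lrig1-low libraries with S11 at 896.3 CPM, and S12 stands apart for Btrc and Amer1.

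In edgeR none of the 8 tested members was called at an adjusted p under 0.05 in any of the 6 comparisons. In Lrig1-low cells 1 of 8 members, Ctnnb1, had an unadjusted p under 0.05 for tumor against normal, as did 1949 of 13883 genes (14.04%), a share of the same size, and 0.331% of all genes tested were called. In Lrig1-high cells 0 of 8 members did, and 0% of all genes were called, with 1559 at an unadjusted p under 0.05. That count of 0 rested on S04, since 807 genes were called without it, 0 of them members. For the mean of both fractions 2.22% of all genes were called. DESeq2 called 0 of 8 members in Lrig1-high cells (1.05% of all genes), 0 in Lrig1-low cells (5.09%) and 1 in the mean (7.82%). Between Lrig1-high and Lrig1-low cells, 0 members and 0% of all genes were called by edgeR in tumors and in normal epithelium, with 1042 and 499 genes at an unadjusted p under 0.05. Without S07, S08, S09 and S10, edgeR called 48 genes in tumors and 796 in normal epithelium and 0 members in either, with Apc at -0.20 and Axin1 at 0.36 in normal epithelium (edgeR adjusted p = 0.399 for Axin1). Without S04 it called 365 genes in tumors. DESeq2 called 0 members in tumors (0.202% of all genes) and in normal epithelium (0.0072%), and limma-voom called 0 in tumors (0% of all genes) and 1, Axin1, in normal epithelium (30%). The interaction likewise gave 0 members and 0% of all genes, with 999 at an unadjusted p under 0.05, and 157 genes were called without S04. Groups without overlap in CPM were seen for 0 of 8 members between tumor and normal in Lrig1-high cells (8.39% of all genes) and 1 of 8, Ctnnb1, in Lrig1-low cells (18.3%). For Lrig1-high against Lrig1-low cells this was 0 of 8 in tumors (7.46%) and 0 of 8 in normal epithelium (2.84%).

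The intervals say how far the members could have moved. For the mean of both fractions, 6 of the 8 members (Apc, Axin1, Ctnnb1, Gsk3a, Gsk3b and Csnk1a1) had 95% intervals that excluded a halving and a doubling in tumor cells. The same 6 members had such intervals for tumor over normal in Lrig1-high cells and between the fractions in tumors and in normal epithelium. In Lrig1-low cells 5 did for tumor over normal, since the interval of Ctnnb1 reached 1.04 on the log2 scale. Btrc and Amer1 had wider ones: their intervals for the mean of both fractions ran from 0.427 to 1.497 and from 0.727 to 2.43 times the normal level. Of the 8 members, 8 had a positive log2 fold change in Lrig1-low cells and 6 in Lrig1-high cells, with medians of 0.10 and 0.13, against medians over all genes tested of 0.02 and -0.04.

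**Figure D4:**
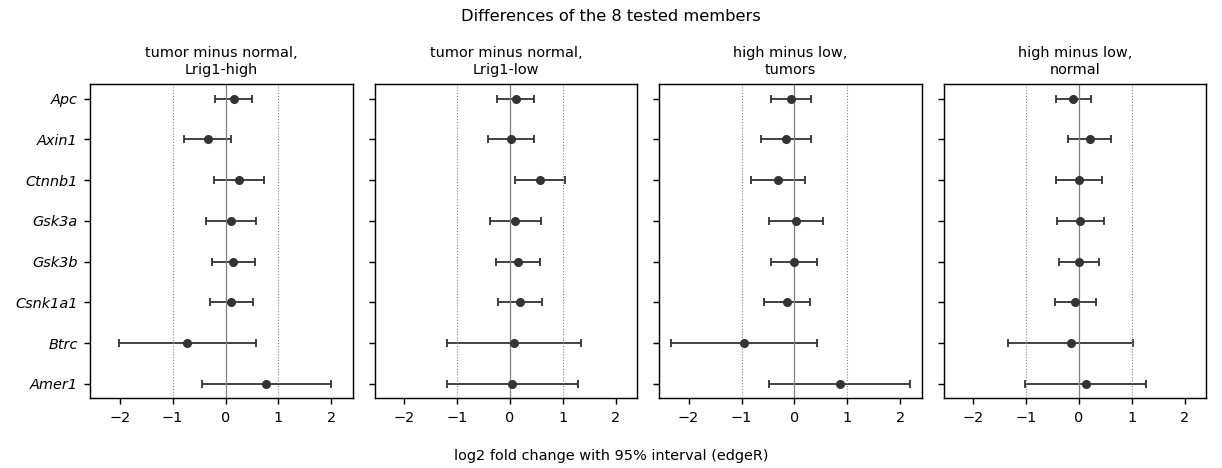
Log2 fold change with its 95% interval (edgeR) for the 8 tested members in 4 comparisons, with dotted lines at a halving and a doubling. The interval of Ctnnb1 for tumor minus normal in Lrig1-low cells, 0.09 to 1.04, is the one that excludes 0, and those of Btrc and Amer1 are the widest.

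The other parts of the pathway were set beside the members from lists made by role, with earlier results of these data known. Some genes are in the list of beta-catenin targets as well, so the lists are not independent. They are Axin2 of the partners, Lgr5, Rnf43 and Znrf3 of the receptors, and Tcf7 and Lef1 of the nuclear cofactors. Among 22 tested partners of the complex (of 23 listed), which include other CK1 and PP2A subunits and ligase subunits, 0 were called by edgeR in any comparison, with 4 positive and 0 negative at an unadjusted p under 0.05 for tumor over normal in Lrig1-low cells, 4 positive and 1 negative in Lrig1-high cells, and 2 positive and 3 negative between the fractions in tumors. Their median log2 fold changes of tumor over normal were 0.07 in Lrig1-high and 0.07 in Lrig1-low cells. Skp1 and Cul1, the core of the ligase that Btrc serves, were the partners with the highest means, Cul1 only through S03. Skp1 differed by 0.14 ± 0.20 in Lrig1-high cells and 0.46 ± 0.20 in Lrig1-low cells (edgeR adjusted p = 0.776 and 0.324). Cul1 differed by 4.49 ± 1.07 in Lrig1-low cells (edgeR adjusted p = 0.0738), which rests on S03 at 4592 CPM, where the other 13 libraries had 52.9 to 89.8 CPM. Of 6 genes of AXIN turnover, the tankyrases among them, 0 were called by edgeR (1 at an unadjusted p under 0.05 in each fraction), with median log2 fold changes of 0.20 in Lrig1-high and 0.07 in Lrig1-low cells. Of 12 cytoskeletal partners of APC, 0 were called by edgeR (1 at an unadjusted p under 0.05 in each fraction), and Iqgap1, a scaffold at the cell cortex, differed by -0.25 ± 0.24 in Lrig1-high and -0.05 ± 0.23 in Lrig1-low cells.

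At the receptor level, 0 of 21 tested genes were called by edgeR, with 7 positive and 1 negative at an unadjusted p under 0.05 in Lrig1-low cells and 0 in Lrig1-high cells, and with median log2 fold changes of 0.12 in Lrig1-high and 0.74 in Lrig1-low cells. Fzd5, a Wnt receptor, had the lowest value of the list in Lrig1-low cells, -1.22 ± 0.29 (edgeR adjusted p = 0.0738). Lgr4, the listed gene with the highest mean, differed by 0.68 ± 0.32 in Lrig1-high and 0.60 ± 0.32 in Lrig1-low cells (edgeR adjusted p = 0.456 and 0.457). Among 8 tested adherens junction partners of beta-catenin, 1 was called in the mean of both fractions, Cdh2 (N-cadherin), at 5.27 ± 0.91 (edgeR adjusted p = 0.0167). Cdh2 had 1.7, 2.5 and 8.0 CPM in tumor Lrig1-high and 8.6, 2.9 and 23.3 CPM in tumor Lrig1-low cells, against at most 0.6 CPM in the normal libraries, and its adjusted p rose above 0.05 (to 0.0651 at most) when S01, S11, S13 or S14 was left out. Cdh1 (E-cadherin), the main epithelial partner, differed by 0.10 ± 0.21 in Lrig1-high and -0.13 ± 0.21 in Lrig1-low cells. Cdh17, the next by mean, differed by 0.08 ± 0.31 in Lrig1-high and -0.94 ± 0.32 in Lrig1-low cells (edgeR adjusted p = 0.931 and 0.190). Of 21 tested nuclear cofactors, 2 were called in the mean of both fractions, the TCF/LEF genes Tcf7l1 (3.48 ± 0.71, edgeR adjusted p = 0.0309) and Lef1 (4.45 ± 0.96, edgeR adjusted p = 0.0341). Both lost their calls when any 1 of S01, S02, S05, S06, S11, S12, S13 or S14 was left out, with adjusted p up to 0.0971 for Tcf7l1 and 0.111 for Lef1. Tcf7l1 had 0.95, 7.12 and 23.5 CPM in tumor Lrig1-high and 1.76, 1.72 and 5.41 CPM in tumor Lrig1-low cells. Its highest normal library was S01 at 1.22 CPM, above S04. Lef1 had 1.11, 3.47 and 24.1 CPM in tumor Lrig1-high and 11.8, 0.80 and 34.4 CPM in tumor Lrig1-low cells. Its highest normal library was S10 at 3.52 CPM, above S04, S07 and S08.

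The 22 listed targets of beta-catenin had larger median log2 fold changes of tumor over normal than the members. The list was made with earlier results of these data known, so this contrast is a description and not an independent test. In Lrig1-low cells 22 of 22 had a positive log2 fold change of tumor over normal, with a median of 2.82, and 2 were called by edgeR, Cd44 and Sp5. Among all genes tested 52.0% were positive there and 0.331% were called. Cd44, a hyaluronan receptor of crypt cells, had 144.3, 286.7 and 294.2 CPM in tumor Lrig1-low cells, against 20.8, 20.7, 54.9 and 18.9 CPM in normal Lrig1-low cells, a log2 fold change of 3.07 ± 0.44 (edgeR adjusted p = 0.0106). Sp5, a transcription factor in Wnt feedback, had 20.5, 13.1 and 70.6 CPM in tumor Lrig1-low cells, against 2.7, 2.3, 5.9 and 2.0 CPM in normal Lrig1-low cells, a log2 fold change of 3.41 ± 0.60 (edgeR adjusted p = 0.0337). Neither gene had overlapping groups. Without S11 no target was called by edgeR in Lrig1-low cells, with Cd44 at 2.90 (edgeR adjusted p = 0.0661) and Sp5 at 2.36 (edgeR adjusted p = 0.222). Both genes also missed the threshold without S01, S05 or S13, and Sp5 without S02, and in these 4 fits Cd44 was at 2.87 or more with an adjusted p of at most 0.0884, and Sp5 at 3.17 or more with an adjusted p of at most 0.159. Without S07, S08, S09 and S10, 18 of 22 were called (3.23% of all genes). Only S03 and S11 were then left as tumor Lrig1-low libraries, so this count leans on S11 too. The 4 libraries left out stand out by Lrig1, and the choice of them is not independent of stem cell genes.

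In Lrig1-high cells 16 of 22 targets had a positive log2 fold change of tumor over normal, with a median of 0.65 and 0 called by edgeR (4 at an unadjusted p under 0.05). Among all genes tested 47.4% were positive there and 11.2% had an unadjusted p under 0.05. In the mean of both fractions all 22 were positive, with a median of 1.83, and 6 were called: Cd44, Sp5, Wif1, Lef1, Dkk2 and Prox1. The shares of all genes were 48.4% positive and 2.22% called. Over 24 alternatives, in which the fit without S12 is repeated, Cd44 was called in 24, Sp5 in 18 (adjusted p up to 0.0843), Dkk2 in 15 (up to 0.121), Wif1 in 14 (up to 0.109), Lef1 in 14 (up to 0.111) and Prox1 in 11 (up to 0.167). In normal epithelium 21 of 22 had a positive difference between Lrig1-high and Lrig1-low cells, with a median of 1.49 on the log2 scale, and 0 were called by edgeR (13 at an unadjusted p under 0.05). Among all genes 51.2% were positive there and 3.59% had such a p. Without S07, S08, S09 and S10, 18 of 22 targets were positive, with a median of 2.07 and 13 called (5.69% of all genes). That choice of libraries is not independent of stem cell genes. In tumors 3 of 22 had a positive difference between Lrig1-high and Lrig1-low cells, and the median was -0.73, with 0 called by edgeR (1 at an unadjusted p under 0.05). Here 45.7% of all genes were positive and 7.51% had such a p. The interaction was negative for 22 of 22 targets, with a median of -2.31 and 0 called by edgeR (10 at an unadjusted p under 0.05). For the interaction 45.4% of all genes were positive and 7.20% had such a p. These comparisons share libraries, so their directions are not independent of each other.

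**Figure D5:**
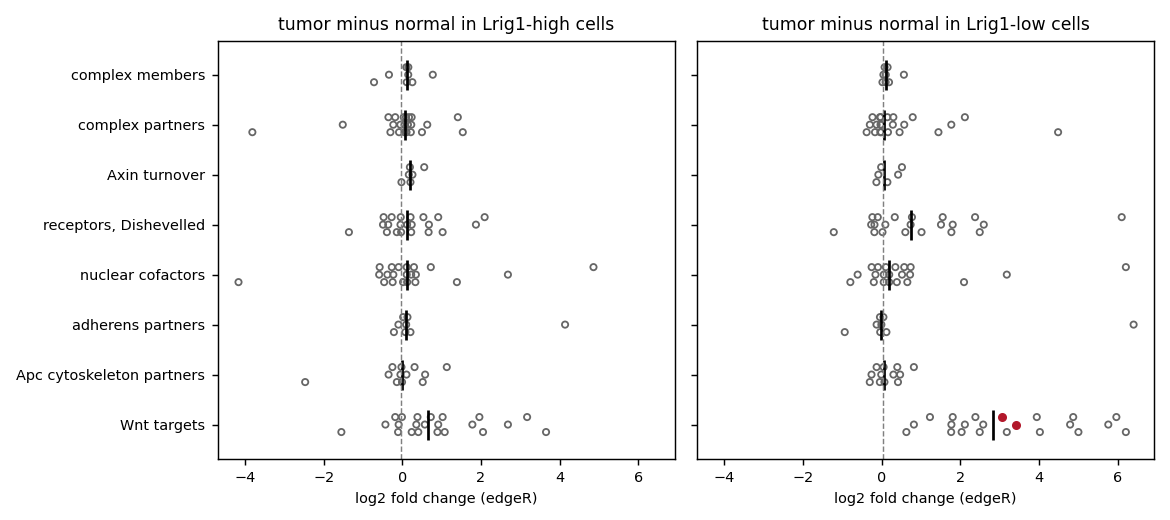
Log2 fold change of tumor over normal (edgeR) for each tested gene of the complex and of 7 pathway lists, in Lrig1-high and in Lrig1-low cells, with open circles for genes not called, filled circles for called genes, a bar at each list's median and a dashed line at the median of all genes. The Wnt targets have medians of 0.65 and 2.82, and the complex members 0.13 and 0.10. Some genes appear among the Wnt targets and in another list.

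Promoters were compared to set the letters beside these values, using RefSeq promoters of the GRCm38.p6 assembly (250 bases before to 50 after each start). Of the 9 members, 4 had one in the table (Gsk3a, Ctnnb1, Apc2 and Gsk3b, with 8 promoters). The TCF/LEF core CTTTGAT was searched on both strands, as CTTTGAT or ATCAAAG. It was in 0 of the 8 promoters of members, in 4 of 23 promoters of the targets (17.4%, in Mmp7, Sp5 and Tnfrsf19) and in 3.73% of 32851 promoters in all. Among the other lists it was in 2 of 16 promoters of the cytoskeletal partners of APC (12.5%, in Arhgef4 and Dlg1) and in 0 of the rest. Several of the 8 member promoters are alternative starts of Apc2, which was too low to be fitted. A count of 0 among 8 is near the 3.73% share over all promoters, so it sets the members apart from nothing. A match is a description of the letters and not a binding site. Ctnnb1 and Sp5 are shown, the substrate gene beside a target gene that was called. The Sp5 window was placed to hold its motif, so the GC and CpG of the windows are from different distances to the start. The Ctnnb1 window is chr9:120933300-120933399 on the plus strand, the 100 bases before the start, with 17 CpG and 82% GC. The Sp5 window is chr2:70474773-70474872 on the plus strand, from 150 to 51 bases before the start, with 4 CpG and 48% GC, and its capitals mark the motif, which begins 104 bases before the start.
Ctnnb1: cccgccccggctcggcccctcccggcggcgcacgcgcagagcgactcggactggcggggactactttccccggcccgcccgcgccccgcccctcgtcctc
Sp5: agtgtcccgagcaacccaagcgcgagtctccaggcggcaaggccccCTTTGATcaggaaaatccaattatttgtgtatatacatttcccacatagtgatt

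The genes whose log2 CPM most resembled each of 3 members over the 14 libraries were ranked by Pearson's r, as a description of libraries that share depth and quality. For Apc these were Rap1b (r = 0.919), Stat3 (0.901) and Lrp10 (0.900). For Ctnnb1 they were Tnks2 (0.926), Adam10 (0.905) and Nisch (0.900). For Axin1 they were Smyd4 (0.963), Cc2d2a (0.948) and Tasp1 (0.946). Tnks2, a tankyrase that marks AXIN for destruction, was highest in S11 at 350.2 CPM, the library where Ctnnb1 was highest too. Between members, Apc and Ctnnb1 had r = 0.614 and Apc and Axin1 had r = -0.407. By ranks (Spearman's rho) these pairs had 0.358 and -0.582, and S11 was the highest library for both Apc and Ctnnb1. Gsk3b and Amer1 had 0.835 (0.710 without S12), and Btrc and Amer1 -0.753 (-0.138 without S12).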

How the data were processed

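The authors deposited whole-number read counts for each gene, from featureCounts 1.5.3 run over mm10 exons with reverse-strand counting, per the file headers. Trimmomatic, HISAT2 and Subread are named in the submitters' processing notes. Its command sets nothing for reads that map to several places or genes, which can lower counts of related genes. Libraries came from a stranded total RNA kit for small inputs, per the labels' protocols. S15, under 1000 counts, was left out. Counts of 14 libraries were fitted in edgeR 4.0.16 (R 4.3.3) with TMM scaling, filterByExpr (13883 genes) and group means as coefficients. Tests were quasi-likelihood F tests with p-values adjusted over every tested gene (Benjamini-Hochberg). Calls are at an adjusted p under 0.05. An SE is the absolute log2 fold change over the square root of F. CPM uses TMM-scaled library sizes. The code of the fit was run on simulated counts, which checks the code and not the results given here. Alternatives were DESeq2 1.42.0, limma-voom 3.58.1 with sample weights, other filters and scalings, and libraries left out. A further alternative put the near-empty S15 back into the edgeR fit, and the ranges over alternatives include it. Named genes are the 9 members, Lrig1, and 3 nearest genes of Apc, Ctnnb1 and Axin1. Per list and comparison, up to 3 called genes per direction were eligible, or the 2 highest by mean where none was called. Of the eligible genes, Usp34, Usp7, Diaph1, Smarca4, Bcl9l and Sox9 are not described above, and others are given for some comparisons only. Genes shared between pathway lists are named too. Dkk2, Prox1, Mmp7, Tnfrsf19, Arhgef4, Dlg1, Cdh5, Vwf, Tek, Pdgfra, the other markers given for S11, S03 as the source of the Cul1 value and the markers at 0 were named after their values were seen. The members and lists were chosen with earlier results of these data known.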

Additional observations from a re-analysis of the deposited data

How the results depend on the processing

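Over 1184 alternative fits of the 48 member results, in which the fit without S12 is repeated, 2 called a member. They come from 24 or 25 settings per result that share most of their libraries, so they are not independent. Few genes of any kind were called in the main edgeR fit, 0% to 2.22% of all genes by comparison. DESeq2 called 1 member (Ctnnb1) in the mean of both fractions, where it called 7.82% of all genes. With sample weights, limma-voom called 1 member (Axin1) between the fractions of normal epithelium, where it called 30% of all genes. In 122 of the 1184 fits the sign differed from that in edgeR, for values not past the threshold in either. The alternatives include a fit with the near-empty S15 put back. There the tumor over normal value in Lrig1-low cells was 0.26 for Ctnnb1 and -0.10 for Apc, against 0.57 and 0.10 without S15. No called value reversed. The number of Wnt targets called in Lrig1-low cells, 2 in edgeR, was 14 with DESeq2, 18 with limma-voom, 1 with only the groups compared in the fit, 5 with the runs of library numbers as a block, 18 without S07, S08, S09 and S10, 6 without S12, and 0 to 11 when each library was left out in turn. For the mean of both fractions, 6 in edgeR, it was 12 with DESeq2, 17 without S07, S08, S09 and S10, 3 without S12, and 1 to 13 when each library was left out. The number of all genes called for tumor against normal in Lrig1-low cells, 46 in edgeR, ran from 0 to 1389 over the alternatives, and for the mean of both fractions, 308 in edgeR, from 34 to 1086. Between the fractions of normal epithelium it was 0 in edgeR, 4169 with limma-voom and 796 without S07, S08, S09 and S10. Without S04 it was 807 for tumor against normal in Lrig1-high cells, 365 between the fractions in tumors and 157 for the interaction, each 0 in edgeR with all 14 libraries. The cause of these changes was not tested. No paired analysis was possible because the groups share no replicate numbers. The block above uses runs of 4 consecutive library numbers, which no label ties to an animal or day, and libraries of other groups in the same run had a median correlation of 0.03 in their deviations. Depth limits Apc2, at 5 counts or fewer per library.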
